A study of Mus musculus with 28 samples.

Results

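Pdgfra, Vcan, Cspg4, Olig1, Olig2 and Sox10 are genes by which oligodendrocyte precursor cells of the brain are commonly recognised. They were taken by name, as 6 of the 41549 genes counted in nuclear RNA from mouse motor cortex, and all 6 were found. Each of 7 mice (numbered 17 to 23) had been injected stereotactically in the motor cortex of both hemispheres, with AAV-Cas9-miR-124-empty in the left one. The right hemisphere received AAV-Cas9-miR-124-g4. The vectors are called empty and g4 here. All animals and all 28 libraries thus come from tissue given a Cas9 vector, and vector and side of the brain cannot be told apart. An adeno-associated virus (AAV) carried Cas9 with an HA tag, and sorting split each hemisphere's nuclei into HA-positive nuclei, which hold the tagged nuclease, and HA-negative nuclei, with 7 libraries in each of the 4 groups. Nuclei of either fraction may come from any cell type, since no label names one. The labels give no age or strain of the animals, no promoter for Cas9, and no meaning for g4.

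Oligodendrocyte precursors are dividing glial cells that persist in the adult cortex and give rise to myelinating oligodendrocytes. Pdgfra encodes the receptor for platelet-derived growth factor (PDGF), which drives their proliferation. Vcan encodes versican, a secreted chondroitin sulfate proteoglycan of the extracellular matrix, and Cspg4 encodes the membrane proteoglycan NG2. Olig1 and Olig2 encode basic helix-loop-helix transcription factors that bind E-box sequences, and Sox10 encodes a transcription factor of the SOX family. Olig2 and Sox10 specify the lineage, and Olig1, Olig2 and Sox10 stay on in mature oligodendrocytes, whereas Pdgfra and Cspg4 are lost as precursors differentiate. Outside the lineage, Pdgfra is also made by fibroblasts and Cspg4 by pericytes and smooth muscle cells of vessels, together called mural cells.

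In GRCm38 coordinates, Pdgfra lies at chr5:75152292-75198215 on the plus strand, Vcan at chr13:89655312-89742509 on the minus strand, Cspg4 at chr9:56865033-56899870 on the plus strand and Sox10 at chr15:79154908-79165240 on the minus strand. Olig2 at chr16:91225457-91228677 and Olig1 at chr16:91269772-91271933 are neighbours on the plus strand, 41094 bases apart. Olig1 shares 157 exonic bases with Gm15966, a noncoding gene on the opposite strand that held 2 counts over the 28 libraries. Pdgfra shares 456 exonic bases with the antisense gene Gm42802, which held 0.

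As the vectors are named for miR-124, the 3' UTR of each gene was searched for the 7 bases GTGCCTT, which pair with the seed of miR-124 (bases 2 to 8), and for TGCCTTA. Only Vcan held a match, 1 copy of GTGCCTT at base 59 of its 1919-base 3' UTR, at chr13:89657166-89657172 of GRCm38 on the minus strand. It is shown because it is the single miR-124 seed match in the 6 genes, with the match in capitals.
Vcan 3' UTR match: gcctttccGTGCCTTtcctatca
Of 21021 protein-coding genes with an annotated 3' UTR, 19.7% held at least 1 match of either kind. The other 5 genes held 0 matches in 3' UTRs of 980 to 3115 bases.

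The sequences before the starts of Pdgfra and Vcan, the genes with the most counts in HA-negative nuclei, are shown with the E-box CANNTG in capitals, the class of site to which OLIG proteins bind. Each is 250 bases, taken from RefSeq on GRCm38.p6 and written along the gene's own strand. The Pdgfra stretch is chr5:75152001-75152250 on the plus strand, and the Vcan stretch is chr13:89742513-89742762 on the minus strand.
Pdgfra: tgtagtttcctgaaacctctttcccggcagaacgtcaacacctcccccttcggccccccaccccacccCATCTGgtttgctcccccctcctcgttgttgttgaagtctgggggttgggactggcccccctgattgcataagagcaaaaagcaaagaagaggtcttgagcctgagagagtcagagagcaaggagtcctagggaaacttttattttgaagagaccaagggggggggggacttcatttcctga
Vcan: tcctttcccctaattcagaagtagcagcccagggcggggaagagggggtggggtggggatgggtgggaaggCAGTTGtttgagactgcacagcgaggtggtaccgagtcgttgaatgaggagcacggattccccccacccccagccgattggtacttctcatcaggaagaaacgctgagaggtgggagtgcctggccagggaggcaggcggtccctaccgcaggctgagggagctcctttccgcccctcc
Each stretch held 1 E-box on either strand, which begins 182 bases before the start of Pdgfra and 179 before that of Vcan. An E-box stood in 66.2% of 32851 RefSeq stretches of the same length. Promoter sequences were matched for 4 of the 6 genes, and Olig1 and Sox10 were not matched. In the same 250 bases, Cspg4 and Olig2 held 0 copies of CANNTG. The SOX motif AACAAT, found in 9.42% of all stretches, occurred once, in that of Olig2. The SOX motif ACAAAG (16.5%) and the E-box CAGCTG (13.0%), which is one form of CANNTG, occurred in none of the 4.

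The libraries were shallow, with 248612 to 902944 counts each and 8687 to 13668 genes detected. Ribosomal RNA made up 17.0 to 40.4% of the counts of a library, and stayed in the totals and in the scaling of levels. The 6 genes together held 544 counts in the empty HA-negative libraries, 790 in the g4 HA-negative ones, 61 in the empty HA-positive ones and 148 in the g4 HA-positive ones. The hairpin locus Mir124a-2 held counts in 6 of 7 g4 HA-positive libraries, 57 in all, and 0 counts in the other 21 libraries. The labels do not name the locus that g4 was meant to reach. The g4 HA-positive library of animal 19 stood apart. It held 107 of the 148 counts of its group, with all 6 genes detected, while the other 13 HA-positive libraries held 1 to 24 counts, with a median of 6 and 1 to 4 of the genes detected. It also held 591 counts of Xist, the noncoding RNA of the inactive X chromosome in females, beside 86 counts of Y-linked genes, while the other 15 libraries of animals 17 to 20 held 0 counts of Xist. Its 17 myelin genes summed to 1817 CPM (counts scaled to the size of the library) against 177 to 272 in the other 6 libraries of its group, and its 14 microglia genes to 409 against 2.75 to 46.9. All 11 excitatory and 10 inhibitory neuron markers were counted in every group. Inhibitory markers summed to 866 ± 97.1 and 808 ± 138 CPM in empty and g4 HA-negative nuclei and to 2734 ± 488 and 2361 ± 530 in HA-positive ones (SD, n = 7). Excitatory markers went the other way in their means, with 1902 ± 268 and 1912 ± 264 CPM in HA-negative nuclei. In HA-positive nuclei they summed to 1367 ± 308 and 1622 ± 222 CPM (SD, n = 7). Results that rest on the library of animal 19 are therefore given with and without it. The source of its RNA was not tested.

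In HA-negative nuclei the 6 genes were all measurable but low. Levels are given as CPM after trimmed mean (TMM) scaling, in which 1 count was worth 1.05 to 3.68 CPM, as mean ± SD over 7 libraries. The sum of the 6 genes was 136 ± 27.4 CPM (SD, n = 7) in empty libraries and 193 ± 38.5 (SD, n = 7) in g4 ones. The myelin genes, which mark mature oligodendrocytes, summed to 2126 ± 354 and 2298 ± 532 CPM in the same libraries.

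Pdgfra, the growth factor receptor, stood in the empty HA-negative libraries of animals 17 to 23 at 50.9, 7.57, 19.6, 42.1, 46.1, 27.5 and 25.1 CPM. With g4 the same animals gave 48.3, 71.4, 61.7, 45.2, 50.1, 43.7 and 44.4 CPM. The g4 libraries lay close together and the empty ones were spread, and the groups overlapped.

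Vcan, the secreted proteoglycan, was at 21.4, 49.5 and 91.6 CPM (lowest, median and highest) with the empty vector and 29.2, 52.7 and 110 with g4. Cspg4, the membrane proteoglycan, ranged from 0 to 31.6 with a median of 10.1 CPM with the empty vector, and from 1.72 to 29.2 with a median of 13.0 with g4. The ranges of both genes overlapped between the vectors.

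Of the transcription factors in HA-negative nuclei, Olig1 was at 11.8, 18.9 and 31.6 CPM (lowest, median and highest) with the empty vector and at 13.0, 32.4 and 45.4 with g4. Olig2 was at 0, 7.84 and 32.4 CPM with the empty vector and at 0, 11.3 and 24.4 with g4. Sox10 was at 5.50, 11.4 and 25.5 CPM with the empty vector and at 1.88, 31.6 and 44.6 with g4. Olig2 was thus at 0 in 1 library of each group, and Olig1 and Sox10 were counted in all 14.

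**Figure D1:**
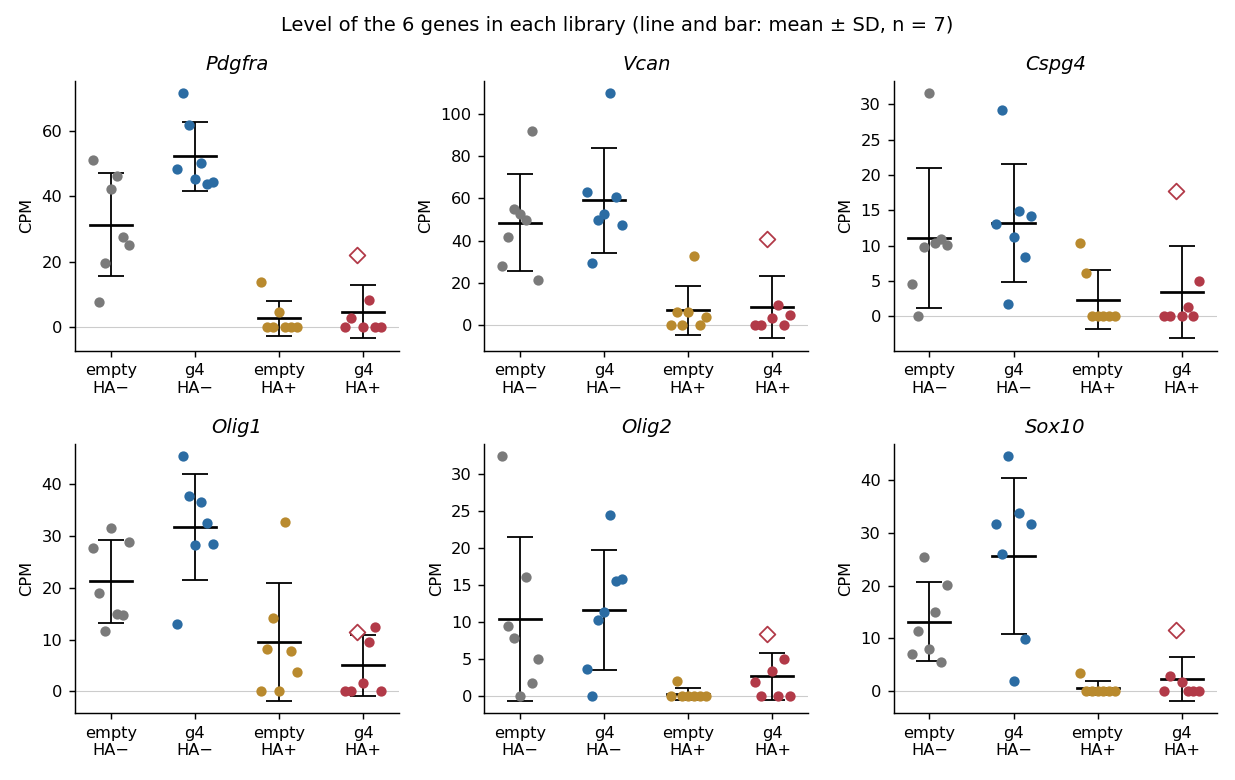
Level of each of the 6 genes in the 28 libraries, in CPM on a linear axis, for HA-negative (HA−) and HA-positive (HA+) nuclei with the empty and the g4 vector; points are libraries, lines and bars are the mean ± SD of 7, and the open diamond is the g4 HA-positive library of animal 19. The HA-positive libraries lie near 0 except for single libraries, among them the diamond at 22.0 CPM for Pdgfra and 40.8 for Vcan.

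Per kilobase of annotated exon, the order of the genes changed. Olig1, a gene with 1 exon, was highest in HA-negative nuclei, at 9.82 ± 3.71 CPM per kilobase (SD, n = 7, empty) and 14.7 ± 4.71 (g4), and it stood above the next gene, Sox10, in 6 of 7 libraries of each group. Cspg4 was lowest at 0.927 ± 0.830 and 1.11 ± 0.700 CPM per kilobase (SD, n = 7), below the next gene in 7 of 7 and 6 of 7 libraries. Sox10 at 4.32, Olig2 at 4.10, Vcan at 3.35 and Pdgfra at 3.12 CPM per kilobase (means, empty vector) did not differ beyond their spread, and each exceeded the next in only 3 or 4 of 7 libraries. With g4 the means were 8.40 for Sox10, 5.20 for Pdgfra, 4.58 for Olig2 and 4.08 for Vcan, each above the next in 4 or 5 of 7. Nuclear RNA holds introns, and whether the counts include intronic reads is not given in the sources used here, so this scale assumes reads on exons.

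HA-positive nuclei were then set against HA-negative nuclei of the same vector. All 6 genes had lower means in HA-positive nuclei with either vector. The sum of the 6 was 22.3 ± 20.4 CPM (SD, n = 7) in empty HA-positive nuclei against 136 in HA-negative ones, and the groups did not overlap. With g4 it was 26.5 ± 38.7 (SD, n = 7) against 193, and 12.3 ± 9.63 (SD, n = 6) without the library of animal 19. Within each animal the HA-positive sum came to 5.18 to 43.0% of the HA-negative sum with the empty vector, with a median of 11.0%, and to 1.13 to 10.7% with g4 in the 6 animals other than 19, where it was 54.4%. Where groups are said not to overlap, here and below, the share of all genes without overlap was not counted, so this is a description. In bulk nuclei, fewer cells of a type and less RNA per cell cannot be told apart.

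Pdgfra was at 0 in 5 of 7 empty HA-positive libraries, and at 13.9 and 4.73 CPM in those of animals 17 and 20. With g4 it was at 0 in 4 of 7, and at 2.75, 22.0 and 8.24 CPM in those of animals 18, 19 and 21. Every g4 HA-positive library thus lay below every g4 HA-negative library, the lowest of which was at 43.7 CPM. The log2 fold change with g4 was -3.05 ± 0.55 (SE, adjusted p = 0.000773 by edgeR's quasi-likelihood test with Benjamini-Hochberg adjustment over all genes tested, called under 0.05), and -4.40 ± 0.54 (adjusted p = 2.3e-07) without the library of animal 19. With g4, Pdgfra passed the count filter through the HA-negative libraries, as it was at 0 in most HA-positive ones. Such a filter favours genes low in HA-positive nuclei, so these p-values are a description. With the empty vector Pdgfra had too few counts for the filter. Pooled over libraries, its empty HA-positive level was 7.68% of the HA-negative one, on 7 against 127 counts, with an exact 95% interval of 3.03 to 16.3% that covers counting error only. Without the library of animal 17 it was 3.65%, on 3 counts.

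Vcan was at 0 in the empty HA-positive libraries of animals 17, 19 and 22, at 3.68 to 6.30 CPM in 3 others and at 32.7 in that of animal 21. With g4 it was at 0 in 3 libraries, at 3.38, 9.61 and 4.94 CPM in those of animals 20, 21 and 23, and at 40.8 in that of animal 19. It was lower in the HA-positive library of 7 of 7 animals with each vector, with ranges that overlapped through those 2 high libraries. The log2 fold change was -2.75 ± 0.60 (SE, adjusted p = 0.00322, edgeR) with the empty vector and -2.51 ± 0.65 (adjusted p = 0.0311) with g4. Without the g4 library of animal 19 it was -4.01 ± 0.50 (adjusted p = 2.96e-07). With all g4 libraries of animal 17, 18, 20, 21, 22 or 23 left out in turn, Vcan missed the threshold with g4, at adjusted p = 0.0521 to 0.104, with log2 fold changes of -2.27 to -2.47.

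Cspg4 held 6 counts in empty HA-positive nuclei against 42 in HA-negative ones, 19.9% of that level after scaling (exact 95% interval 6.92 to 47.1%). Without the empty HA-positive library of animal 17 it was 11.0%, and without that of animal 18 it was 12.0%. With g4 it held 20 counts against 49, of which 17 were in the library of animal 19, and 3 counts without it, or 8.24% (1.64 to 25.5%). Mural cells also make this gene, and their 10 markers summed to 13.9 ± 7.67 CPM in empty and 17.7 ± 9.19 in g4 HA-negative nuclei. Of the 10, 3 were at 0 in all libraries of each group. The mean of Cspg4 itself was 11.1 and 13.3 CPM in the same groups. In HA-positive nuclei the mural sum was 8.59 ± 10.4 and 9.63 ± 8.18 CPM (SD, n = 7), with 7 and 5 of 10 markers at 0. The 5 fibroblast markers, given for Pdgfra, summed to 6.20 ± 4.70 and 13.3 ± 12.0 CPM (SD, n = 7) in empty and g4 HA-negative nuclei and to 1.97 ± 5.21 and 3.66 ± 4.55 in HA-positive ones. The part of these cells in the levels of Cspg4 and Pdgfra was not tested.

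Olig1 had the highest HA-positive level relative to HA-negative nuclei of the 6 genes with the empty vector, but not with g4, where it was 19.4% on all libraries and Cspg4 was 41.7%. In empty HA-positive libraries it was at 0, 8.15, 14.2, 0, 32.7, 7.88 and 3.68 CPM in animals 17 to 23, counted in 5 of 7. The pooled level was 43.1% of the HA-negative one (exact 95% interval 26.7 to 67.7%), on 26 against 84 counts. Of those 26 counts, 12 were in the library of animal 21, and without it the level was 26.6% (13.9 to 47.1%). The Vcan level moved from 14.5 to 6.65% when that library was left out, since it held 12 of 20 Vcan counts as well. With g4, Olig1 was at 0, 0, 11.5, 1.69, 9.61, 12.5 and 0 CPM in HA-positive nuclei, all below the lowest HA-negative library at 13.0. It missed the count filter when all g4 libraries were used, and without the library of animal 19 it was called at -2.84 ± 0.58 on the log2 scale (SE, adjusted p = 0.000893, edgeR), where 4.16% of genes tested were called as lower.

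Olig2 and Sox10 were nearly unseen in empty HA-positive nuclei, with 1 count each over 7 libraries against 42 and 57 in HA-negative nuclei. That placed Olig2 at 3.32% (exact 95% interval 0.0821 to 19.5%) and Sox10 at 2.45% (0.0609 to 14.2%) of the HA-negative level. With g4 each held 13 counts against 53 and 104, of which 8 and 11 were in the library of animal 19. Without that library Olig2 stood at 12.7% (3.96 to 31.5%) and Sox10 at 2.59% (0.309 to 9.58%). Every empty HA-positive library was below every empty HA-negative library in Sox10, at most 3.47 against at least 5.50 CPM, and Olig2 ranges overlapped at 0. These Sox10 values are 1 count against 3 counts.

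Olig1 and Olig2 are neighbours in the genome, and their counts were set against each other. Olig1 made up 66.7% of the counts of the pair in empty HA-negative nuclei (exact 95% interval 57.7 to 74.8%) and 70.4% in g4 HA-negative ones (63.1 to 77.0%). In empty HA-positive nuclei it made up 96.3%, or 26 of 27 counts (81.0 to 99.9%). In g4 HA-positive nuclei it made up 64.9% (47.5 to 79.8%), and 72.2% (46.5 to 90.3%) without the library of animal 19. These intervals pool libraries and cover counting error only, and 12 of the 26 counts came from 1 library.

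**Figure D2:**
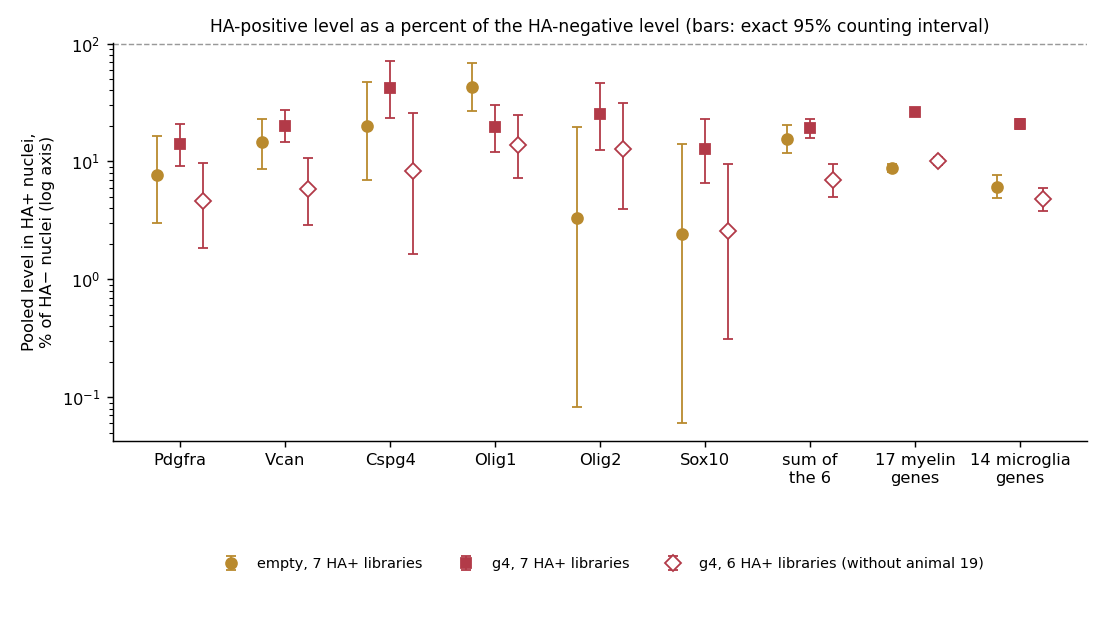
Pooled level in HA-positive nuclei as a percent of that in HA-negative nuclei, on a log axis, for the 6 genes, their sum and the summed myelin and microglia genes; circles are the empty vector, squares g4 and open diamonds g4 without the HA-positive library of animal 19, and bars are exact 95% intervals for counting error. All points lie below the dashed line at 100%, from 2.45% for Sox10 to 43.1% for Olig1 with the empty vector.

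Among all genes, 7.01% of 5538 tested were called between fractions with the empty vector, 3.5% as lower in HA-positive nuclei. With g4, 6.4% of 6264 were called, 3.08% as lower. Of the 6 genes, 1 passed the count filter with the empty vector (Vcan) and 2 with g4 (Pdgfra and Vcan), and these were called as lower. A filter passed through the HA-negative libraries favours genes that are low in HA-positive ones, so these counts are a description. The p-values of Pdgfra, Vcan and Olig1 between fractions are a description for the same reason. With no filter on low counts, all 6 could be fitted, and 4 were called as lower with the empty vector (Pdgfra, Vcan, Olig2 and Sox10), where 2.41% of 17753 genes were. Olig1 at -1.20 (adjusted p = 0.298) and Cspg4 at -2.23 (adjusted p = 0.178) were not. With g4 and no filter, 4 were called as lower (Pdgfra, Vcan, Olig1 and Sox10), where 1.63% of 18208 genes were. Without the library of animal 19 all 6 were called as lower, where 2.45% of 17924 genes were.

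The myelin genes also stood lower in HA-positive nuclei than in HA-negative ones. Their pooled level was 8.80% of the HA-negative one with the empty vector (exact 95% interval 8.06 to 9.59%) and 10.1% (9.35 to 10.9%) with g4 without the library of animal 19. With that library it was 26.1%. In the fit with no filter on low counts, 17 of 17 myelin genes were called as lower with the empty vector, 10 of 17 with g4, and 16 of 17 with g4 without the library of animal 19. The microglia genes were at 6.12% with the empty vector (4.85 to 7.62%), at 20.9% with g4 (18.8 to 23.0%) and at 4.81% with g4 without animal 19 (3.82 to 5.99%). Of the 14, that fit called 10, 7 and 13 as lower in the same order. The shares of all genes called as lower by it are those given for the 6 genes. Astrocyte genes were at 65.2% of the HA-negative level with the empty vector, 106% with g4 and 106% with g4 without animal 19. The sum of the 6 precursor genes was at 15.6% (11.8 to 20.4%) with the empty vector on that scale. With g4 it was at 19.1% (15.9 to 22.8%), above the empty vector with overlapping intervals, and without the library of animal 19 at 6.98% (4.97 to 9.56%), below it.

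**Figure D3:**
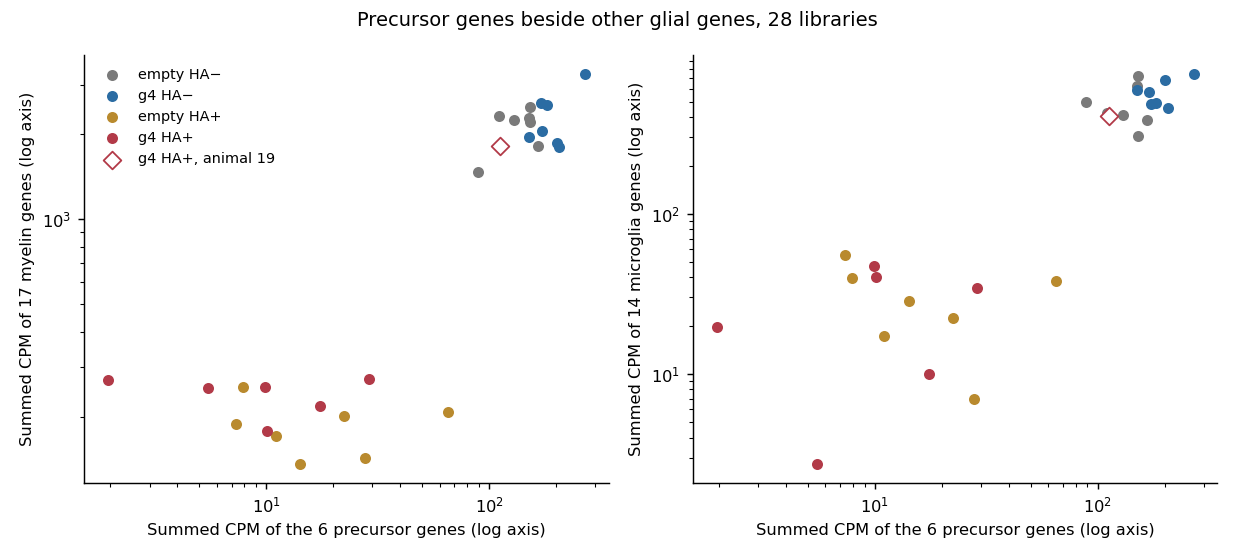
Summed CPM of the 6 precursor genes against that of 17 myelin genes (left) and 14 microglia genes (right) in the 28 libraries, both axes logarithmic; colours are the 4 groups and the open diamond is the g4 HA-positive library of animal 19. That library, at 112 CPM of precursor genes and 1817 of myelin genes, lies among the HA-negative libraries, and the other 13 HA-positive libraries lie at 271.8 CPM of myelin genes or less.

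Further genes used as precursor markers gave a mixed picture. The 14 of them, several of which are also made by neurons or astrocytes (Tnr, Ptprz1, Sox6 and Luzp2 among them), summed to 756 ± 81.8 CPM in empty HA-negative and 575 ± 102 in empty HA-positive nuclei (SD, n = 7), 76.0% on pooled counts, and to 79.2% with g4 without animal 19. Of all genes tested between fractions, 7.01% were called with the empty vector and 6.4% with g4. Of the 14, with the empty vector 8 were tested and 1 was called, Ptprz1, a receptor-type phosphatase, lower at -1.20 ± 0.28 (SE, adjusted p = 0.00668, edgeR). With g4, 1 of 8 was called higher, the transcription factor Sox6 at 1.08 ± 0.34 (adjusted p = 0.0464), and 1 lower, the semaphorin Sema5a at -0.71 ± 0.20 (adjusted p = 0.0241). Without the library of animal 19 a second was called lower, the matrix glycoprotein Tnr at -0.52 ± 0.16 (adjusted p = 0.0321). Median log2 fold changes of the 8 were -0.58 and -0.38, against 0.01 over all genes tested. Neu4, a sialidase of this list named here after its values were seen, held 0 counts in empty HA-positive nuclei against 36 in HA-negative ones, at most 15.0% of that level by the exact 95% interval. In those HA-negative libraries it was at 10.5 ± 13.9 CPM (SD, n = 7), with 2 at 0 and 1 at 39.5. Some of the list went the other way, among them Luzp2 and Sox6, at 88.5 and 56.3 CPM in empty HA-positive against 53.1 and 33.0 in HA-negative nuclei.

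Of 8 genes of precursors that have begun to differentiate, only the kinase gene Fyn, which neurons also make, passed the filter between fractions. Fyn was not called by edgeR, with an unadjusted p of 0.736 with the empty vector and 0.464 with g4. DESeq2 was run without that filter, though by its own filter genes of low mean count received no adjusted p. It called 4 of the 8 as lower with the empty vector and 0 with g4. Of all genes to which it gave an adjusted p it called 426 of 12586 and 280 of 12905 as lower. Pooled, the 8 genes were at 45.3% of the HA-negative level with the empty vector (exact 95% interval 38.2 to 53.5%). With g4 they were at 73.7%, and at 60.2% without the library of animal 19. Fyn was at 50.3 CPM in empty HA-positive and 55.2 in empty HA-negative nuclei. Gpr17 and Enpp6, named after their values were seen and lower than the list as a whole, are a receptor and an enzyme of newly formed oligodendrocytes. Gpr17 held 10 counts in empty HA-positive against 99 in HA-negative nuclei, or 14.1% (exact 95% interval 6.55 to 27.0%). Enpp6 held 0 against 80, at most 6.58%. With g4, 27 of the 31 Gpr17 counts and 16 of the 17 Enpp6 counts in HA-positive nuclei were in the library of animal 19.

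Genes that act with the 6 were also compared between fractions. Over all genes tested there by edgeR, 388 of 5538 (7.01%) were called with the empty vector and 401 of 6264 (6.4%) with g4. At an unadjusted p under 0.05 there were 1065 and 1089 genes. Without the library of animal 19, 507 of 6371 were called with g4. The counts of calls that follow are a description beside these shares. Of 12 genes around the PDGF receptors (ligands, the other receptor and adaptors), 8 were tested between fractions. With the empty vector 0 were called and 3 had an unadjusted p under 0.05 (Sos1, Pik3r1 and Pik3ca). With g4 1 was called, Sos1, the exchange factor that links growth factor receptors to Ras, higher at 0.94 ± 0.19 (SE, adjusted p = 0.00132, edgeR). Without the library of animal 19 a second was called with g4, Pik3r1, a regulatory subunit of PI3-kinase, lower at -0.68 ± 0.20 (adjusted p = 0.0305). Pdgfa, the ligand for the Pdgfra product, was tested and not called, at -0.85 ± 0.60 with the empty vector and 0.04 ± 0.39 with g4. Of 18 transcription and chromatin regulators of the lineage, 8 were tested with each vector and 0 called, while 2 with the empty vector (Sox8 and Myrf) and 1 with g4 (Sox8) had an unadjusted p under 0.05. Sox8, a close relative of Sox10, was at -1.33 ± 0.51 (adjusted p = 0.123) and -0.81 ± 0.38 (adjusted p = 0.267). Of 14 genes of the matrix around versican, 3 were tested with the empty vector and 1 was called, Hapln4, a link protein of nets around neurons, higher at 1.24 ± 0.26 (adjusted p = 0.00166), and 0 of 4 with g4. By DESeq2, 2 of 17 lineage regulators were lower with the empty vector and 1 with g4, beside the same counts over all genes. The adaptors and chromatin regulators are made by most cell types.

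Between the vectors, the 6 genes were compared first in HA-negative nuclei. All 6 means were higher with g4, and 0 of the 4 genes tested passed the test. Pdgfra was higher with g4 in 6 of 7 animals, with a log2 fold change of 0.72 ± 0.29 (SE, unadjusted p = 0.0169, adjusted p = 0.999, edgeR), and it was lower in animal 17 alone. Sox10 was higher in 6 of 7 animals, all but animal 20, at 0.91 ± 0.43 (unadjusted p = 0.0403, adjusted p = 0.999). Olig1 at 0.58 ± 0.34 and Vcan at 0.31 ± 0.27 were each higher in 4 of 7 animals. Cspg4 and Olig2 had too few counts for the filter, with means of 11.1 ± 9.90 and 13.3 ± 8.35 CPM for Cspg4 and of 10.4 ± 11.1 and 11.6 ± 8.11 for Olig2 (SD, n = 7, empty and g4).

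**Figure D4:**
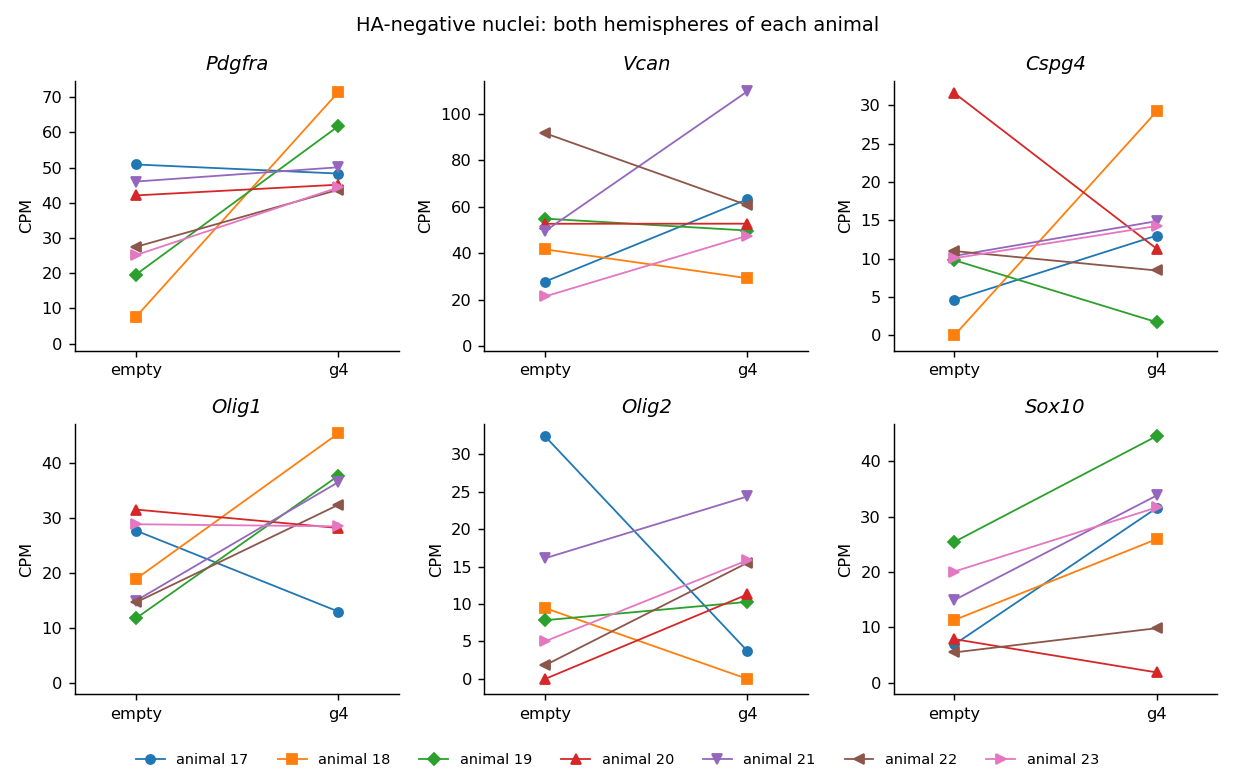
CPM of each gene in HA-negative nuclei of the empty and the g4 hemisphere, on linear axes, with a line and a symbol for each of the 7 animals. Lines for Pdgfra and Sox10 rise in 6 of 7 animals, with the steepest for Pdgfra from 7.57 to 71.4 CPM in animal 18, and lines for the other genes cross.

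The sum of the 6 in HA-negative nuclei was higher with g4 in 6 of 7 animals, and the ranges of 88.9 to 166 and 151 to 269 CPM overlapped. Of all 6262 genes tested, 0.0% were called between the vectors in HA-negative nuclei. At an unadjusted p under 0.05 there were 236, and DESeq2 called 1. Over the 4 members tested the median was 0.65 on the log2 scale, and over all genes tested it was 0.00. The myelin and microglia genes had medians of 0.15 (14 tested) and 0.30 (10 tested), and the further precursor markers 0.07 (10 tested), with 0 called in each list. The 3 tested genes of differentiating precursors had a median of -0.36.

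In HA-positive nuclei the effect of g4 on these genes was not measurable at this depth. None of the 6 passed the filter, where 0.0599% of 5011 genes were called. Olig2 had 1 count with the empty vector and 13 with g4, at 0.291 ± 0.770 and 2.67 ± 3.17 CPM (SD, n = 7), and 1.72 ± 2.12 (n = 6) without the library of animal 19. Olig1 went the other way, from 9.51 ± 11.4 to 5.04 ± 5.86 CPM. With no filter all 6 were fitted and 0 were called, where 0.16% of 17517 genes were, at adjusted p from 0.447 for Olig2 to 0.894 for Vcan (edgeR), and unadjusted p was 0.069 or more for each. The means of Pdgfra, Vcan and Cspg4 were higher with g4 on all libraries and lower without that of animal 19, at 1.83, 2.99 and 1.05 CPM against 2.66, 6.96 and 2.36 with the empty vector.

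The difference between the g4 effects in the fractions, fitted over all 28 libraries, was tested for 4 of the 6 genes and called for 0, as for 0.0% of 7197 genes. At an unadjusted p under 0.05, 359 genes passed, and DESeq2 called 0. The difference was 0.48 ± 0.88 for Pdgfra, 0.24 ± 0.93 for Vcan, 1.46 ± 1.19 for Sox10 and -1.31 ± 0.86 for Olig1 on the log2 scale (SE, adjusted p = 0.996 to 0.998, edgeR). Without the library of animal 19 it turned to -0.87 for Pdgfra, -1.27 for Vcan and -0.31 for Sox10, and was -1.72 for Olig1.

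Over the 28 libraries, the genes whose log2 CPM followed the mean of the 6 most closely, of 7193 compared, were Cx3cr1 (Pearson r = 0.951), Ttyh2 (0.945), P2ry12 (0.943), Mpeg1 (0.942) and Gjc3 (0.938). Cx3cr1, P2ry12 and Mpeg1 are genes of microglia or macrophages, and Gjc3 encodes a connexin of oligodendrocytes. Like the 6, they were low or absent in HA-positive libraries: Cx3cr1 was at 50.4 ± 25.7 CPM (SD, n = 7) in empty HA-negative nuclei and held 0 in the 13 HA-positive libraries other than that of animal 19, which was at 50.2. Within the 14 HA-negative libraries the correlations were 0.36, 0.68, 0.23, 0.47 and 0.43 in that order. All points share the split into fractions and its depth, and the values are a description.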

How the data were processed

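RNA of fixed, sorted nuclei, in picogram to nanogram amounts per the labels' protocols, was counted in 28 libraries, 7 for each vector and fraction. The values are raw gene counts, 1 column a library, per the labels' names for the deposited tables, and the build is GRCm38, per the submitters' processing notes. Not given in the sources used here are aligner, counter, strand setting and whether molecular identifiers were used, so a gene and an antisense partner cannot be told apart. Cells without a value were read as 0, and 1 entry that names no gene and held 0% of counts was left out. Libraries were grouped by title, and tied to table columns through the descriptions, since for animals 21 to 23 the column carries another number.

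Genes were tested with edgeR 4.0.16 (R 4.3.3), with a robust, two-sided quasi-likelihood fit after filterByExpr by group and TMM scaling, in 5 comparisons: g4 against empty in each fraction, the difference of those effects, and the HA-positive fraction against the HA-negative one for either vector. Benjamini-Hochberg adjustment ran over all genes tested, with a threshold of 0.05. SE is the log2 fold change divided by the root of the F statistic. Positions and 3' UTRs come from GENCODE for GRCm38, in which 41474 genes matched. Pooled percents are ratios of summed counts with exact Clopper-Pearson intervals at 95%, and cover counting error only. The fit was tested on simulated data.

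The 6 genes and the gene lists were chosen with earlier results of these data known. Text names the 6 genes, the called genes of each list with the smallest p-values and the 5 genes most like the 6, and says where another was named after its values were seen. Myelin, microglia, astrocyte and neuron genes are given as counts or sums, and endothelial genes were used for no result here. Libraries were matched to animals by the number in their titles, and the block for animal was an alternative. Values given per animal and the block rest on these numbers, which were not tested. Under number 19, Xist counts were 591 for g4 HA-positive nuclei. They were 0 for g4 HA-negative nuclei and for both fractions with the empty vector, so that match is uncertain. Deviations from group means correlated weakly within animals, with medians of 0.011 to 0.061 over the pairs of groups. Other alternatives were DESeq2 1.42.0, its size factors in edgeR, no count filter, each animal or library subset left out, and 1 model over 28 libraries. In all, 0 pairs of libraries were identical.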

Additional observations from a re-analysis of the deposited data

Results flagged for a closer look

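Single libraries stood far from the other 6 of their group in 12 of 28 sets of a gene (or the sum of the 6) and a group, by Dixon's test at 95%. Chance flags about 1 in 20 sets of normal values, a rate that does not hold for sets near 0 or for sums beside their members, so 12 is not read as an excess. The g4 HA-positive library of animal 19 accounted for 5, with Pdgfra at 22.0 CPM (next highest 8.24), Vcan at 40.8 (9.61), Cspg4 at 17.8 (4.94), Sox10 at 11.5 (2.75) and the sum of the 6 at 112 (28.8). In empty HA-positive nuclei the library of animal 21 was high in Vcan, at 32.7 CPM (next 6.30), and in the sum, at 65.3 (27.8). That of animal 17 was high in Pdgfra at 13.9 CPM (next 4.73) and Sox10 at 3.47, and that of animal 18 in Olig2 at 2.04. Sox10 and Olig2 were at 0 in the other 6 libraries, so each of these values is 1 count. In HA-negative nuclei, Vcan was at 110 CPM in the g4 library of animal 21 (next 63.2), and Cspg4 at 31.6 in the empty library of animal 20 (next 11.0).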

How the results depend on the processing

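Over all alternatives, log2 fold changes were followed for Pdgfra, Vcan, Olig1 and Sox10, in the comparisons where each passed the count filter as tested. They kept direction and side of the threshold in 129 fits, lost the threshold in 7 and turned direction in 13. Effects that were not called and stayed so are among the 129. Cspg4 and Olig2 are in none of these fits, and Olig1 and Sox10 in none between fractions. Called members between fractions with the empty vector numbered 1 as tested, 4 by DESeq2, 4 with no count filter, 2 without HA-positive libraries of fewer than 10000 genes and 3 in 1 model over 28 libraries. Over all genes these fits called 388 of 5538, 660 of 12586 (those with an adjusted p), 661 of 17753, 489 of 6591 and 612 of 7197. With g4 they numbered 2 as tested, 4 by DESeq2, 4 with no filter, 4 in 1 model, 1 to 2 with each animal left out, and 6 with no filter and the g4 HA-positive library of animal 19 left out, a setting added after seeing the data. Over all genes these called 401 of 6264, 525 of 12905, 547 of 18208, 361 of 7197, 218 to 422 with each animal left out, and 744 of 17924. These settings differ in how many of the 6 could be tested. All 7 losses were of Vcan between fractions with g4, 6 of them with an animal left out and 1 without the low-complexity libraries (adjusted p = 0.0568). All 13 turns were in the difference between the fractions of the g4 effect. With the replicate block for animal, Vcan came to -0.01 there, and the block changed no other call or direction. With that library left out, Pdgfra came to -0.87, Vcan to -1.27 and Sox10 to -0.31. With the block as well (added after seeing the data) they were -1.17, -1.28 and -0.12, and with no filter (also added) -0.84, -1.23 and -0.29. With each animal left out in turn, Pdgfra ranged from -0.93 (without 19) to 1.51, Vcan from -1.54 (without 19) to 1.58, with -0.09 without animal 22, and Sox10 reached 3.16 without animal 17. The cause was not tested. With no filter, the median over all genes moved to -0.18 between fractions with the empty vector, 0.14 for g4 in HA-positive nuclei and 0.12 for the difference. Few counts limit the HA-positive values. Total counts were 3988598 in g4 HA-positive against 4036663 in g4 HA-negative libraries, with 902944 of the former in the library of animal 19. With the empty vector they were 2959946 and 4003199. The part of depth in the low counts was not tested.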
